A study of Mus musculus with 15 samples.

Results

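The genes described here are 10 immediate early and closely related genes: the transcription factors Egr1, Egr2, Egr3, Nr4a1, Nr4a2, Klf2 and Klf6, the immediate early response genes Ier2 and Ier3, and the phosphatase gene Dusp1. They were chosen by name, and all 10 were found in each of the 4 deposited tables, among 18075 genes listed for untreated 36N and 36S, 18075 for untreated KD and 36S, 17775 for 36N with and without drug and 19035 for 36N and 36S with drug. The tables gave RNA sequencing values of poly(A) RNA from the bone marrow of C57BL/6 mice with leukemia, in 15 libraries that fell into 5 groups of 3. In every group, lineage-depleted marrow cells had been given the MLL-AF9 oncogene together with GFP on a retrovirus, sorted for GFP and put into mice irradiated with 7 and 3 Gy, and the leukemias were then passed on through mice irradiated with 3 Gy until the fourth recipients, whose whole marrow was used. The donors of group 36S were homozygous for human GFI1 knocked into the mouse Gfi1 locus (GFI1 KI/KI), those of group 36N were homozygous for the 36N variant of the human gene (GFI1 36N/36N), and those of group KD were homozygous for an allele that gives 10 to 20% of the expression of the human gene (GFI1 KD/KD). The groups were 36S untreated (libraries 1 to 3), 36N untreated (libraries 4 to 6), KD untreated (libraries 7 to 9), and 36S (libraries 1 to 3) and 36N (libraries 4 to 6) cells to which temozolomide (TMZ), an alkylating drug, had been given at 50 µg/ml, 20 h ahead of the RNA isolation. In both untreated tables the 36S columns were headed WT, with the numbers 1 to 3, and were taken as 36S because those numbers match its titles and the series title speaks of a GFI1 wildtype, so each untreated difference from 36S rests on that reading. Whole marrow holds host cells of the recipient beside the leukemic cells, and whether the 3 libraries of a group came from separate leukemias is not stated in the labels. P-values therefore measure only the spread between these libraries, which may in part be technical.

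Immediate early genes are switched on within minutes of a signal, without new protein synthesis, when kinase cascades such as the ERK pathway act on factors already bound to their promoters. Serum response factor binds the CArG box in many of these promoters, and CREB binds the cyclic AMP response element (CRE). The products are short-lived: EGR, NR4A and KLF proteins are transcription factors that pass the signal on to later genes, while Dusp1 removes the phosphates that activate p38 and JNK kinases and so closes the loop. In the blood system, EGR factors take part in the choice between monocytes and granulocytes, NR4A receptors in the upkeep of patrolling monocytes and in keeping stem cells from cycling, and KLF2 in the quiescence and trafficking of lymphocytes.

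RefSeq promoter windows of mouse build GRCm38.p6, each running from 250 bases before to 50 bases after a start site, were found for 7 of the 10 genes (11 windows, 5 of them of Egr2), and no window was used for Egr1, Egr3 and Ier2. The stretches of upstream bases shown here are those of the genes on which the results below turn, so that their promoters can be set side by side. They are written 5′ to 3′ on the strand of the gene, and capitals mark a CArG box (CC, any 6 of A or T, GG), a CRE (TGACGTCA) or a CRE half-site (TGACG, also counted where it lies within a CRE), on either strand. Egr2 is shown by its window 3 (chr10:67537669-67537868, plus strand), which lies inside the span of the annotated gene and outside its exons. The others are Dusp1 (chr17:26508520-26508719, minus strand), Nr4a1 (chr15:101266646-101266845, plus strand), Klf2 (chr8:72318833-72319032, plus strand) and Ier3 (chr17:35821484-35821683, plus strand).
Egr2: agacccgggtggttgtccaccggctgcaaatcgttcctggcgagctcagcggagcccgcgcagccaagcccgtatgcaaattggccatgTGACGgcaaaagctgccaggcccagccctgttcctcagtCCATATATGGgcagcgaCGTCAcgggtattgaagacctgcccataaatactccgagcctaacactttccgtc
Dusp1: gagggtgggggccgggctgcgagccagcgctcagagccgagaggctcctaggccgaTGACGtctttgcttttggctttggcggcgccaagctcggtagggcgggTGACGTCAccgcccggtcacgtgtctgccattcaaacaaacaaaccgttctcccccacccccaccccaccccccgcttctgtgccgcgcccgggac
Nr4a1: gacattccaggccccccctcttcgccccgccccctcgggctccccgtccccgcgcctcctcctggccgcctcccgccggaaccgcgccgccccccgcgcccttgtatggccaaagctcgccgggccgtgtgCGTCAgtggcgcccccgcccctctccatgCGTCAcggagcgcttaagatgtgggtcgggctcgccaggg
Klf2: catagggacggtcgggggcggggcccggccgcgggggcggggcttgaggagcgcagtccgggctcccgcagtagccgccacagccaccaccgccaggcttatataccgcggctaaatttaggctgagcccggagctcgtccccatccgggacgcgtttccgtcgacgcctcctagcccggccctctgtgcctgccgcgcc
Ier3: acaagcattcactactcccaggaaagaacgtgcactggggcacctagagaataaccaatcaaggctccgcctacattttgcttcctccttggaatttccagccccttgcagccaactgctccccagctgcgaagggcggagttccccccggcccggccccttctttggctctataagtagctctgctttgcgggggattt

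The Egr2 stretch held a CArG box at -72 to -63 from the start site, with a CRE half-site on each side of it, at -111 to -107 and at -55 to -51. The 5 Egr2 windows held 2 CArG boxes at separate positions: CCATATATGG, shared by 3 windows that overlap, and CCTTTTTTGG in window 2. The windows of the other 6 genes held none. Of 32851 promoter windows of that length, which may overlap likewise, 1.63% held a CArG box. Dusp1 was the 1 gene with a whole CRE, at -143 to -136, against 1.79% of all windows. CRE half-sites lay in the windows of 5 of the 7 genes (Egr2, Nr4a1, Nr4a2, Klf2 and Dusp1). Of all windows, counted by window and not by gene, 20.8% held a half-site. The half-sites of Egr2 lay in 3 of its 5 windows, and those 3 overlap. For Nr4a1 there were 4 of them, with those at -69 to -65 and -40 to -36 in the stretch shown, and the single half-site of Klf2, at -241 to -237, lay outside the stretch shown. The windows of Ier3 and Klf6 held none of these letters, and an EGR site (GCGTGGGCG, either strand, 0.612% of all windows) was found in none of the 7 genes. A match of letters is a description of the sequence and not a measured binding site.

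Values are normalized counts, as normalized by the authors, and means are given ± SD over 3 libraries. The ratio of the same library between tables varied from gene to gene, so a single factor per library does not describe the normalization. Differences are log2 fold changes on the log2(normalized count + 1) scale with their standard error (SE), which understates the change of genes near 0, and the test was limma-trend with Benjamini-Hochberg adjustment over all genes tested in a comparison, called at an adjusted p under 0.05. The read depth is unknown, and column totals, in units of 1e6, lay between 11.27 and 24.26. The 36S values were identical in both untreated tables, so the untreated groups could be compared with each other, while the scale of the other tables differed from gene to gene (the same 36N libraries stood 2.35 to 2.36 times higher for Egr2 but 0.975 to 0.980 times as high for Nr4a2 in the table with TMZ). Levels were therefore compared only within a table and within a gene, except for TMZ in 36S, where a factor per gene was used. The targeted gene was analysed in 1 table: reads assigned to mouse Gfi1 stood at 505, 565 and 367 in untreated 36N and at 723, 504 and 555 with TMZ, but since the modified alleles carry the human gene these values do not check the labels, and the level in 36S and KD was not analysed here. In bulk marrow, fewer cells of a type and less RNA per cell cannot be told apart.

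The first comparisons asked how these genes stand in untreated leukemic marrow with the 36N form of GFI1 or with little GFI1. In 36N over 36S, 1 of the 10 genes rose (Klf2) and none fell, where 4.56% of 13137 genes tested were called, 2.55% higher and 2.01% lower. In KD over 36S, 4 of the 10 rose (Klf2, Egr2, Egr3 and Ier2) and none fell, against 11.5% of 13109 genes called, 6.61% higher and 4.86% lower. In KD over 36N, 4 of the 10 rose (Egr2, Dusp1, Klf2 and Ier2) and none fell, against 3.24% of 13118 genes called, 2.03% higher and 1.21% lower. KD over 36S and KD over 36N share the KD libraries. The median log2 difference over the 10 genes was -0.06, 0.77 and 0.75 in these comparisons, where the median over all genes tested was -0.01 in each. Counting genes whose groups did not overlap, 3 of the 10 were higher and 1 lower in 36N than in 36S (13.1 and 13.8% of all genes), 7 higher and 1 lower in KD than in 36S (15.7 and 15.8%), and 4 higher and none lower in KD than in 36N (12 and 10.7%). The count for KD over 36S came down to 2 without 36S library 2 and without 36S library 3, to 1 without KD library 9 and to 2 where genes had to reach 50 instead of 10 in 3 libraries. The fit with the filter of 50 did not test Egr2 and Egr3, whose values did not reach 50 in 3 libraries. For KD over 36N it came down to 2 without 36N library 5, to 1 without KD library 9 and to 2 with no trend in the fit, and for 36N over 36S it rose to 2 without 36N library 4 or library 6.

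**Figure D1:**
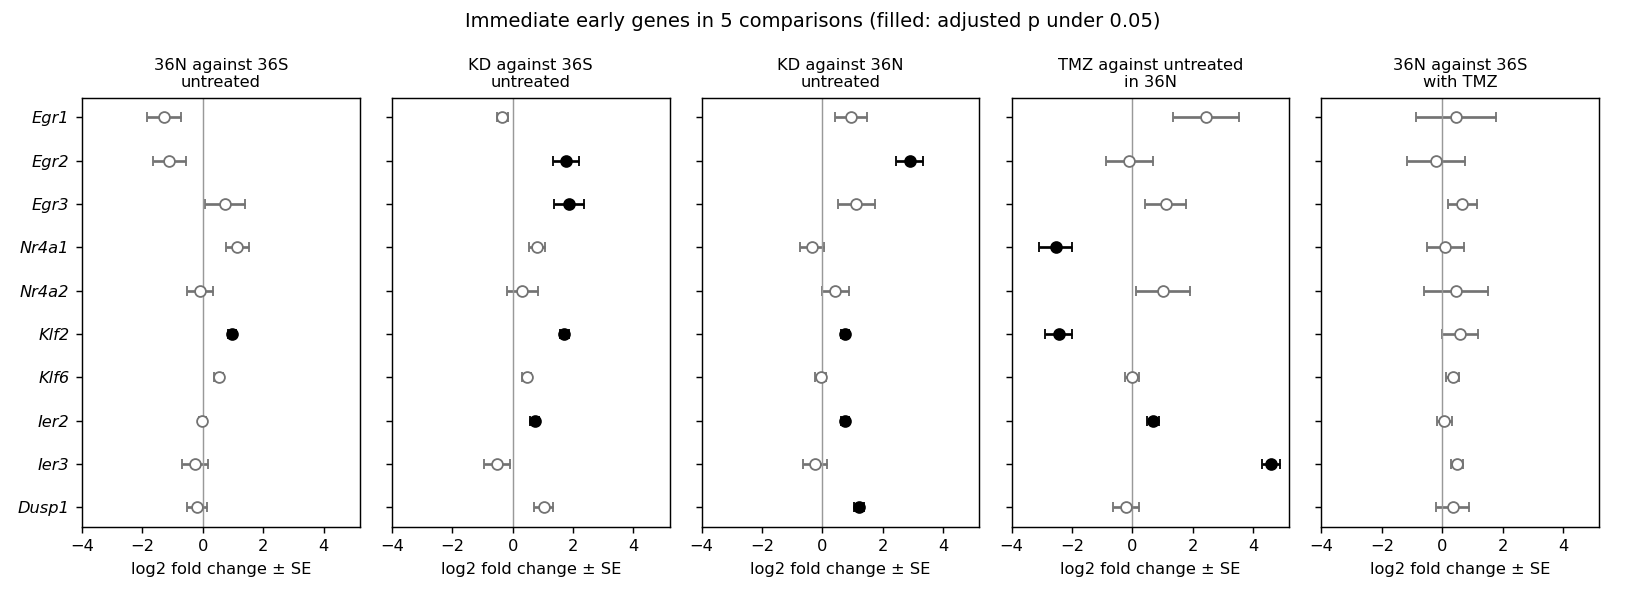
Log2 fold changes (log2(normalized count + 1), first group minus second) of the 10 genes with their standard errors in 5 comparisons of 3 libraries with 3. Filled points passed an adjusted p of 0.05. In KD the filled points lie to the right of 0 in both comparisons, with TMZ they lie on either side (Ier3 at 4.58, Nr4a1 at -2.54), and none is filled for 36N against 36S with TMZ.

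Klf2, a zinc finger factor best known for keeping lymphocytes quiescent (mm10 chromosome 8, 72319033 to 72321656), stepped up across the untreated genotypes. It stood at 249, 299 and 314 normalized counts in 36S libraries 1 to 3, at 577, 538 and 553 in 36N libraries 4 to 6 and at 933, 875 and 1020.4 in KD libraries 7 to 9. Every 36N library was above every 36S library and below every KD library. The means were 287 ± 34.3 in 36S, 556 ± 19.3 in 36N and 943 ± 73.1 in KD. Klf2 rose 1.94-fold in 36N over 36S (log2 fold change 0.96, SE 0.14, adjusted p = 0.00589) and 3.28-fold in KD over 36S (log2 fold change 1.72, SE 0.15, adjusted p = 0.000181). It also rose 1.70-fold in KD over 36N (log2 fold change 0.76, SE 0.13, adjusted p = 0.0128), a call that was lost without 36N library 5 (adjusted p = 0.0882), without KD library 9 (0.0885) and with no trend in the limma fit (0.0599). Both differences from 36S used the same 36S libraries. Across the 9 untreated libraries, the genes whose log2 values lay closest to those of Klf2 after centring were Aif1, Clec7a and Ugt1a7c, with root mean square differences of 0.0965, 0.112 and 0.141 where Klf2 itself had an SD of 0.709. Of these 3, Aif1 and Clec7a are genes of monocytes and macrophages. They were the closest of all named genes tested, and whether cell makeup links them to Klf2 was not tested.

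**Figure D2:**
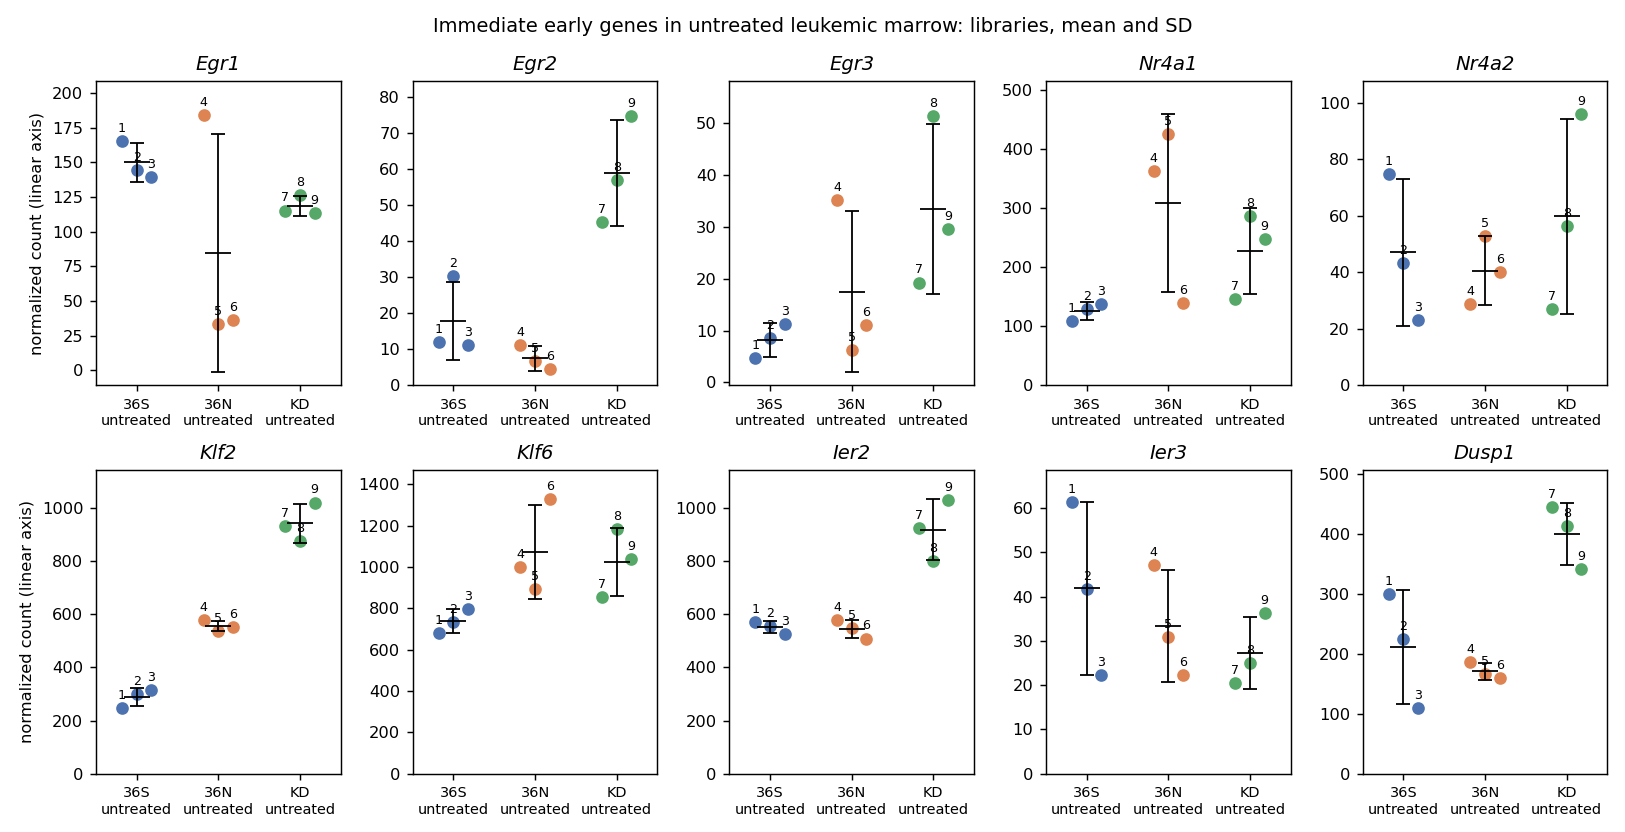
Normalized counts (linear axis) of the 10 genes in untreated 36S, 36N and KD marrow. Each point is a library with its number, and bars are the mean and SD of 3 libraries. Klf2 climbs without overlap from 36S to 36N to KD, Egr2, Ier2 and Dusp1 are highest in the KD libraries, and 36N library 4 stands apart for Egr1 and Egr3.

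The related factor Klf6, which is widely expressed and induced in activated macrophages, was not called between any of the genotypes. Its values were 682, 734 and 799 in 36S, 999, 893 and 1329.9 in 36N and 854, 1183 and 1040.1 in KD. Neither 36N nor KD overlapped with 36S, but the log2 differences of 0.52 and 0.46 had adjusted p-values of 0.101 and 0.0832. Of 11 other Klf genes tested, Klf4, a factor that drives monocyte differentiation, was the 1 gene that rose in 36N over 36S, from 766 ± 258 to 1736 ± 321 normalized counts (log2 fold change 1.23, SE 0.25, adjusted p = 0.028). Klf4 was also the 1 gene of that list that rose in KD over 36S, where it stood at 2351 ± 101 (log2 fold change 1.68, SE 0.24, adjusted p = 0.00228). In KD over 36N, Klf11 fell by 1.33 on the log2 scale (adjusted p = 0.0305) and the other 10 did not pass.

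The list of genes known to be driven by KLF2 in lymphocytes or endothelium held 4 tested genes in the untreated comparisons, and in KD over 36S 1 of them rose and 1 fell. Itgb7, an integrin chain of leukocyte homing, stood at 445, 561 and 873 normalized counts in 36S, at 1637, 1544 and 2049 in 36N and at 4189, 3442 and 4712 in KD. These groups did not overlap, and Itgb7 rose by 1.52 in 36N over 36S, 2.76 in KD over 36S and 1.24 in KD over 36N on the log2 scale (adjusted p = 0.00712, 0.000176 and 0.00271). Cdkn1c, a brake on the cell cycle, fell in KD from 52.9 ± 12.7 to 9.53 ± 3.14 (log2 fold change -2.38, adjusted p = 0.00526).

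Among the EGR factors, which bind GC-rich sites through 3 zinc fingers, Egr2 and Egr3 were highest in KD while Egr1 was not. Egr2 (chromosome 10, 67535475 to 67542188) stood at 12.1, 30.4 and 11.2 normalized counts in 36S, at 11.1, 6.58 and 4.42 in 36N and at 45.4, 56.9 and 74.7 in KD. All 3 KD libraries lay above all 6 others, and the highest 36N library lay just below the lowest 36S library. Egr2 rose in KD over 36N from 7.38 ± 3.42 to 59.0 ± 14.8 (log2 fold change 2.89, SE 0.44, adjusted p = 0.0069), and the call was lost without KD library 9 (adjusted p = 0.0607). It rose 3.30-fold in KD over 36S, from 17.9 ± 10.9 (log2 fold change 1.78, SE 0.43, adjusted p = 0.0275). That call did not hold in 4 of the 6 fits that left out a library: without 36S library 1 (adjusted p = 0.0648) or 3 (0.0811), or without KD library 7 (0.0504) or 9 (0.128). In 36N the difference from 36S was -1.11 (SE 0.55, adjusted p = 0.298).

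Egr3 (chromosome 14, 70077203 to 70082614), which is itself a target of other EGR and of calcium signalling, had low values: 4.66, 8.63 and 11.3 in 36S, 35.2, 6.24 and 11.04 in 36N and 19.3, 51.3 and 29.5 in KD. The KD libraries lay above those of 36S, and 36N library 4 lay inside the range of KD. Egr3 rose 4.07-fold in KD over 36S (log2 fold change 1.86, SE 0.51, adjusted p = 0.0437). The call was lost in 5 of the 6 fits that left out a library (adjusted p between 0.0601 and 0.136, all but the fit without KD library 7) and with column totals made equal (0.067). KD and 36N differed by 1.12 (SE 0.61, adjusted p = 0.356).

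Egr1 (chromosome 18, 34859823 to 34864984), the best known of the family and a factor of monocyte differentiation, was not called between genotypes. It stood at 166, 144 and 139.7 in 36S, at 184, 33.5 and 36.3 in 36N and at 115, 126 and 114 in KD. In 36N, library 4 was above all 36S libraries and libraries 5 and 6 were the lowest of the 9. The KD libraries were all below those of 36S, by 0.34 on the log2 scale (SE 0.18, adjusted p = 0.287), and 36N differed from 36S by -1.28 (SE 0.55, adjusted p = 0.233). Without 36N library 4 the difference of 36N from 36S was -2.07 (adjusted p = 0.00616) and that of KD from 36N was 1.73 (adjusted p = 0.0125), so whether Egr1 was called rested on that library.

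Of the other genes of these families (Egr4, Nr4a3, Ier5, Ier5l and the EGR co-repressors Nab1 and Nab2), 4 were tested in 36N over 36S and 5 in each comparison with KD. Ier5l was the 1 gene that passed, in both comparisons with 36S. It stood at 25.1, 35.6 and 39.3 in 36S, at 96.5, 91.9 and 96.4 in 36N and at 129.6, 120.4 and 132 in KD, and rose by 1.51 in 36N (adjusted p = 0.0127) and by 1.93 in KD (adjusted p = 0.00183) on the log2 scale.

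The NR4A proteins are nuclear receptors that act without a known natural ligand, so that their activity follows the amount of protein made. Nr4a1 (chromosome 15, 101254269 to 101274795), which patrolling monocytes need, stood at 109, 129 and 138 in 36S, at 362, 425 and 138.4 in 36N and at 146, 287 and 248 in KD. Neither 36N nor KD overlapped with 36S, but 36N library 6 and KD library 7 lay close to it. The difference from 36S was 1.15 in 36N (SE 0.37, adjusted p = 0.123) and 0.80 in KD (SE 0.26, adjusted p = 0.0791), and neither passed. Without 36N library 6 the former was 1.65 (adjusted p = 0.00443), and without KD library 7 the latter was 1.09 (adjusted p = 0.0195). Nr4a2 (chromosome 2, 57106830 to 57124003) overlapped between all genotypes, at 74.6, 43.2 and 23.1 in 36S, 28.7, 52.9 and 39.9 in 36N and 27.1, 56.3 and 95.9 in KD, with adjusted p-values between 0.649 and 0.919.

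Ier2, which encodes a small nuclear protein (chromosome 8, 84661331 to 84662852), overlapped between 36S and 36N and was higher in KD. It stood at 569, 556 and 527 in 36S, at 577, 547 and 508 in 36N and at 925, 798 and 1028 in KD. The KD libraries lay above all others. Ier2 rose 1.66-fold in KD over 36S (log2 fold change 0.73, SE 0.14, adjusted p = 0.00998) and 1.69-fold in KD over 36N (log2 fold change 0.75, SE 0.15, adjusted p = 0.0229). The former call was lost without 36S library 2 (adjusted p = 0.0536) or KD library 9 (0.0546), and the latter in 5 of the 6 fits that left out a library (adjusted p between 0.0615 and 0.132, all but the fit without KD library 8) and with no trend in the fit (0.0881). Between 36N and 36S the log2 difference was -0.02 with an SE of 0.12 (adjusted p = 0.945). The genes with the closest log2 values over the 9 untreated libraries were Prdx5, Nt5dc2 and Ftl1, with root mean square differences of 0.0894, 0.0995 and 0.101 where Ier2 had an SD of 0.361.

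Dusp1 (chromosome 17, 26505590 to 26562128, minus strand), the phosphatase that switches off p38 and JNK, stood at 299.9, 225 and 109.7 in 36S, at 186, 166 and 160.5 in 36N and at 445, 413 and 342 in KD. The KD libraries lay above all others, the 36N libraries lay close together, and the 36S libraries spread on both sides of 36N. Dusp1 rose 2.34-fold in KD over 36N, from 171 ± 13.6 to 400.3 ± 52.5 (log2 fold change 1.22, SE 0.17, adjusted p = 0.00413), in each of the 14 alternative fits as well (highest adjusted p 0.0244). Over 36S the difference was 1.03 (SE 0.32, adjusted p = 0.0705), and without 36S library 1 it was 1.34 (adjusted p = 0.0182). Exons of Dusp1 share bases with the antisense gene Ergic1 in the GENCODE M21 annotation, and whether reads were counted by strand is not stated, so reads of the pair may not have been told apart. The genes closest to Dusp1 over the untreated libraries were Hs3st3b1, Nudt7 and Neo1, at root mean square differences of 0.192, 0.257 and 0.275 (its own SD was 0.648).

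Ier3, a stress-induced gene that modulates cell survival (chromosome 17, 35821684 to 35822923), was low in every untreated library and not called. It stood at 61.5, 41.8 and 22.3 in 36S, 47.2, 30.8 and 22.3 in 36N and 20.6, 24.9 and 36.4 in KD, and the groups overlapped.

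Some other genes of the immediate early response rose beside these in KD, while others fell or did not pass. Of 7 AP-1 genes tested, Fos and Junb rose in KD over 36S, and Fosb, Jun and Fos in KD over 36N, and none fell in either comparison. Fos, which pairs with Jun in the classic AP-1 dimer, stood at 165, 122.5 and 75.9 in 36S, at 139, 142 and 133 in 36N and at 306, 427 and 334 in KD (log2 fold change 1.60 over 36S, adjusted p = 0.00625, and 1.35 over 36N, adjusted p = 0.00318). Jun, its partner, stood at 496, 256 and 95.1 in 36S, at 90.1, 116.5 and 63.2 in 36N and at 362.5, 398 and 341 in KD, so that it was called over 36N (2.06, adjusted p = 0.00107) while 36S spanned both. Fosb rose by 2.85 over 36N (adjusted p = 0.00164). None of the 7 passed in 36N over 36S. Of the other rapidly induced feedback genes, 4 of 21 rose and 3 fell in KD over 36S: Btg1 and Btg2, which restrain proliferation, rose by 1.14 and 0.93 (adjusted p = 0.00138 and 0.00477), and Spry1 and Spry2, inhibitors of the ERK pathway, fell, with log2 fold changes of -1.47 (adjusted p = 0.0237) and -1.09 (adjusted p = 0.0309). In 36N over 36S, 2 of 22 rose (Dusp6, 0.79, adjusted p = 0.0422, and Btg1, 0.57, adjusted p = 0.0274), and in KD over 36N 1 of 21 rose (Btg1, 0.57, adjusted p = 0.0486). Of 23 genes of ERK and SRF signalling, Srf itself fell in KD over 36S by 0.70 on the log2 scale (adjusted p = 0.0101), and none passed in the other comparisons of untreated groups.

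Markers of several cell types moved with these groups. Of 14 monocyte and macrophage markers tested, 10 rose in KD over 36S, 4 in 36N over 36S and 4 in KD over 36N, and none fell. Their summed normalized count, over the 15 listed, was 51280 to 59080 in 36S, 64240 to 72580 in 36N and 107200 to 163500 in KD. That was also the order of Klf2. The sum of endothelial and stromal markers was 2149 to 2379 in 36S, 2864 to 3053 in 36N and 3139 to 3750 in KD. Most of that sum was Pecam1, at 2142, 1829 and 1954 in 36S, 2693, 2658 and 2303 in 36N and 3055, 3465 and 3249 in KD. None of the other listed endothelial and stromal markers followed the order. Cdh5 stood at 41.42, 14.75 and 26.03 in 36S and at 3.86, 8.596 and 6.37 in KD. Whether the order was particular to monocyte and macrophage markers was not tested. Of the 5 endothelial and stromal markers tested in KD over 36S, 1 rose and 1 fell. Of T and NK cell markers, 5 of 9 rose in KD over 36S and none of 6 in 36N over 36S, with summed values of 93.7 to 231 in 36S, 169.7 to 411 in 36N and 350.5 to 1616 in KD. No heat shock gene of 10 passed in either comparison with 36S, while Hspa1a rose in KD over 36N (log2 fold change 2.39, adjusted p = 0.0071). Mast cell and basophil markers summed to 819 to 1534 in 36S, 354 to 942 in 36N and 2608 to 2912 in KD. In KD over 36N, 3 of 4 tested rose (Cpa3, Hdc and Gata2) and none fell, and in KD over 36S 2 of 5 rose and 1 fell. Of 9 neutrophil markers, 1 rose (Mmp8) and 4 fell in KD over 36N, among them Camp, a granule gene, from 676 ± 239 to 20.6 ± 9.12, and 1 rose and 2 fell in KD over 36S. The plasma cell genes Igkc and Jchain fell in KD over both other groups, and no B or plasma cell marker rose. Of 7 leukemia and progenitor genes, Kit, Mpo and Elane fell in 36N (log2 fold changes of -1.81, -1.48 and -1.25 from 36S) and in KD (-1.55, -1.74 and -1.77). Cd34 rose in KD over 36S, by 0.67, and none of the 7 passed in KD over 36N. The part of these cell types in the differences of the 10 genes was not tested. Libraries within a group also differed. In 36S, Dusp1, Ier3, Nr4a2, Jun (values above), Fosb (205, 95.0 and 11.5) and the heat shock gene Hspa1b (438, 172 and 47.1) all ran from high in library 1 to low in library 3. Egr1 and Ier2 fell in that order over a narrower range. Klf2, Klf6, Nr4a1 and Egr3 ran the other way, from lowest in library 1 to highest in library 3. Library 1 held 58780 summed normalized counts of neutrophil markers against 8225 and 4671 in libraries 2 and 3. In 36N, library 6 held 1228 of erythroid markers against 49.3 and 47.1 in libraries 4 and 5. In KD, library 7 held 350.5 of T and NK cell markers against 1242 and 1616 in libraries 8 and 9. Whether Nr4a1 was called over 36S turned on 36N library 6 and KD library 7, and the part of their makeup was not tested. With column totals made equal, the median of all genes in KD over 36S moved from -0.01 to -0.13 and the share of called genes that were higher from 57.6 to 39.3%, and in KD over 36N the median moved to -0.13 and the share from 62.6 to 49.6%. The directions of the called members were the same under that scaling.

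The next comparison set 36N cells given TMZ beside untreated 36N cells. The labels do not say whether the treated libraries came from the same leukemias as the untreated ones, nor whether the cells were kept in culture for the 20 h, and they name no untreated library handled for the same time. Drug, handling and the makeup of the cells therefore cannot be told apart in any value with TMZ set against one without. Ier3 and Ier2 rose and Klf2 and Nr4a1 fell, so that 4 of the 10 genes were called (2 higher and 2 lower), where 69.7% of 14390 genes tested were called, 36.3% higher and 33.5% lower. The share of called members was thus below that of all genes. The median over the 10 was 0.33, against 0.06 for all genes tested, and their groups did not overlap for 2 genes that were higher and 2 that were lower (38.7 and 35.8% of all genes). Ier2 was the 1 of these 4 calls that did not hold in every alternative fit.

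Ier3 showed the widest separation of the 10. It stood at 69.9, 45.6 and 33.2 normalized counts without TMZ and at 988, 1084 and 1442 with it. The lowest treated library was far above the highest untreated one. From 49.6 ± 18.7 it rose 23.6-fold to 1171 ± 239 (log2 fold change 4.58, SE 0.30, adjusted p = 1.08e-05). Its promoter stretch, shown above, held none of the motifs searched.

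Ier2 stood at 706, 668 and 625 without TMZ and at 1474, 917 and 897 with it. The groups did not overlap, and library 4 was the highest in both. Ier2 rose 1.65-fold (log2 fold change 0.68, SE 0.20, adjusted p = 0.0184). The call was lost without untreated library 5 (adjusted p = 0.053) or 6 (0.0575) and with column totals made equal (0.0687).

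Klf2 ran the other way. It stood at 709, 662 and 684 without TMZ and at 261, 67.2 and 111 with it, and the treated libraries lay far below the untreated ones while spreading more. Klf2 fell from 685 ± 23.6 to 147 ± 102, a level 4.68 times lower (log2 fold change -2.44, SE 0.44, adjusted p = 0.00163). Klf6 stood at 1624, 1452 and 2174 without and 1563, 1369 and 2294 with TMZ (log2 difference -0.02, SE 0.23, adjusted p = 0.94). Of 12 other Klf genes tested, 2 rose and 6 fell. Klf1, the factor of red cell genes, and Klf5 rose by 4.26 and 2.10 (adjusted p = 0.000258 and 0.000941), and Klf4 and Klf3 fell, with log2 fold changes of -3.81 (adjusted p = 0.00127) and -1.71 (adjusted p = 0.000143). All 5 tested genes of the KLF2 target list were called, 3 higher and 2 lower: S1pr1, the receptor by which lymphocytes leave tissue, rose from 10.7 ± 5.97 to 751 ± 486 (log2 fold change 5.98, adjusted p = 6.3e-05), Itgb7 and Cdkn1c rose by 3.39 and 4.19 (adjusted p = 7.6e-06 and 0.00264), and Thbd, an anticoagulant receptor, fell by 3.56 on the log2 scale (adjusted p = 0.000145).

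Nr4a1 fell as well. It stood at 483, 567 and 185 without TMZ and at 127, 40.8 and 47.7 with it, and the groups did not overlap. The mean fell from 412 ± 200.4 to 71.8 ± 48.0, a level 5.73 times lower (log2 fold change -2.54, SE 0.55, adjusted p = 0.00419). Its relative Nr4a2 stood at 28.0, 51.6 and 39.1 without TMZ and at 30.7, 39.4 and 399 with it, and the difference (1.02, SE 0.90, adjusted p = 0.338) came from library 6 alone: without it the difference was -0.14.

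**Figure D3:**
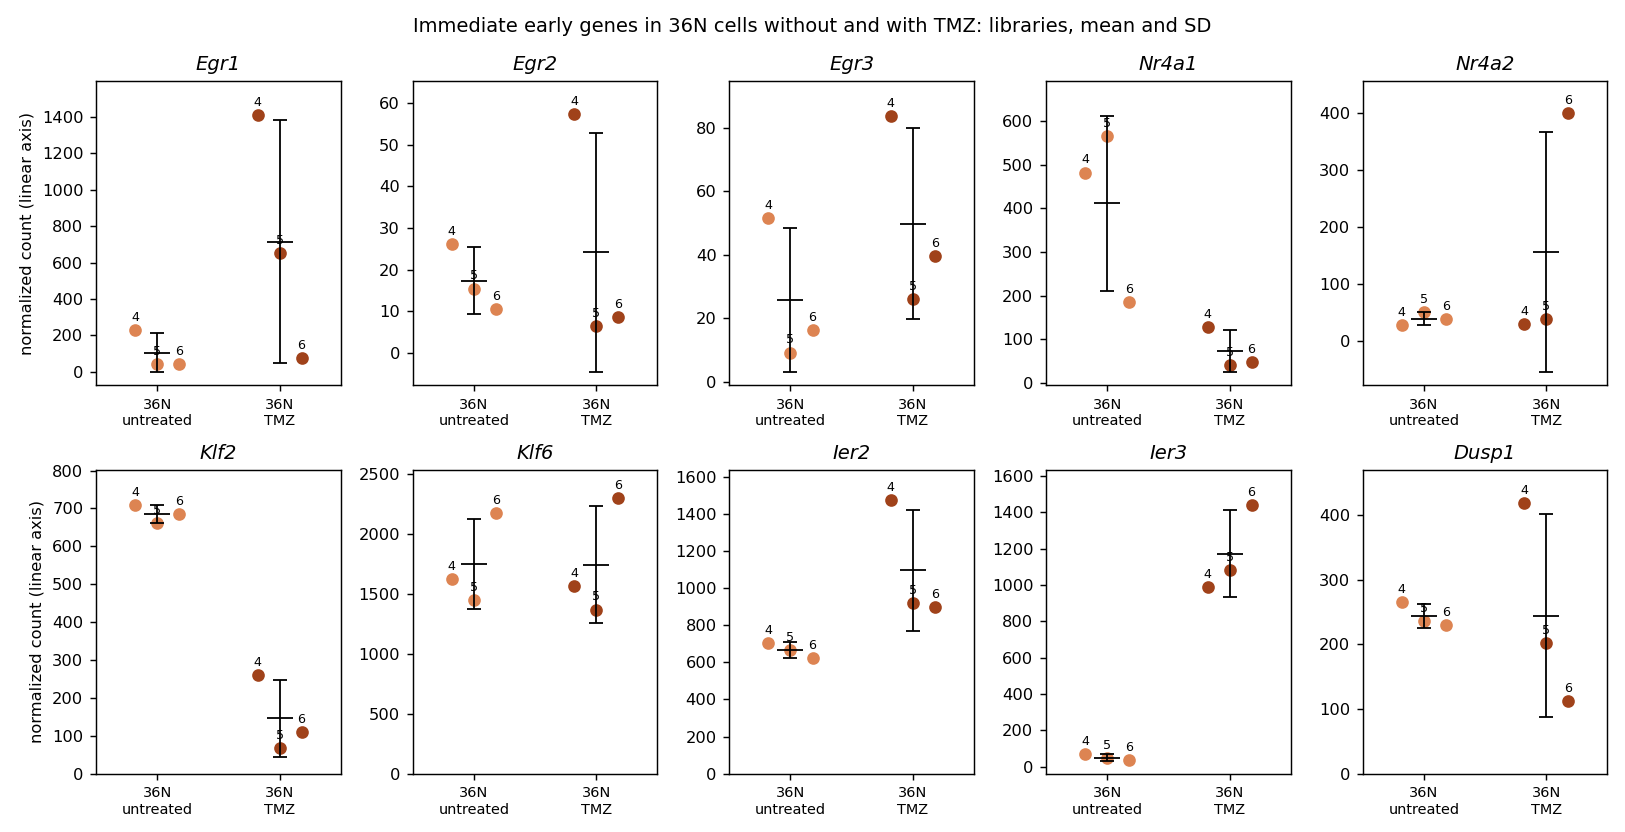
Normalized counts (linear axis) of the 10 genes in 36N cells without and with TMZ. Each point is a library with its number, and bars are the mean and SD of 3 libraries. Ier3 is high and Klf2 and Nr4a1 are low in all 3 treated libraries, while Egr1 and Dusp1 spread widely among the treated libraries and library 6 alone is high for Nr4a2.

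No EGR gene was called with TMZ in the fit without a block by library number. Egr1 stood at 231, 42.1 and 45.8 without and at 1408, 655 and 78.1 with TMZ, so that treated libraries 4 and 5 were above all untreated ones and treated library 6 was below untreated library 4. The log2 difference of 2.43 had an SE of 1.09 (adjusted p = 0.079). It was 3.63 without treated library 6 (adjusted p = 0.00437) and 3.22 without untreated library 4 (adjusted p = 0.043). Egr3 stood at 51.7, 9.16 and 16.3 without and 83.7, 26.2 and 39.5 with TMZ (log2 difference 1.11, SE 0.68, adjusted p = 0.177, and 1.77, adjusted p = 0.0342, without untreated library 4). Egr2 stood at 26.1, 15.5 and 10.4 without and 57.4, 6.44 and 8.63 with it (log2 difference -0.10, SE 0.79, adjusted p = 0.922). Dusp1 stood at 265, 236 and 229.6 without and at 419, 202 and 113 with TMZ (log2 difference -0.19, SE 0.43, adjusted p = 0.704), with means of 244 and 245 and a wide spread among the treated libraries. Nab2, the co-repressor of EGR proteins and a known EGR target, rose from 47.6 ± 10.4 to 348 ± 59.9 (log2 fold change 2.85, SE 0.26, adjusted p = 5.14e-05), and Ier5 rose by 2.04 (adjusted p = 0.000274). They were the 2 of 4 tested genes of that list that passed.

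Among the other early response genes, TMZ libraries differed in most lists, as over all genes. Of 8 AP-1 genes, 4 rose and 1 fell: Atf3, a stress factor, rose by 2.71 (adjusted p = 0.000645), Jun by 2.46 (0.000985) and Junb by 1.32 (0.00185), and Fosl2 fell by 2.60 on the log2 scale (7.3e-05). Of 23 feedback genes, 10 rose and 6 fell. The largest differences were those of Ppp1r15a, which lets translation resume after stress, Gadd45a, a gene of the DNA damage response, and Zfp36l1, which rose by 3.91, 3.87 and 3.44 (adjusted p = 4.87e-06, 1.54e-05 and 3.17e-05), and of Csrnp1, which fell by 2.80 on the log2 scale (adjusted p = 0.00167). Of 23 genes of ERK and SRF signalling, 10 rose and 9 fell, among them Crem (2.10 higher, adjusted p = 0.00149) and Creb1, Mrtfb and Braf, whose log2 fold changes were -2.45, -2.31 and -1.94 (adjusted p = 4.71e-06, 1.37e-05 and 9.79e-06). Of 10 heat shock genes, 6 rose and 1 fell, with Hsph1 2.11 higher and Hspa1b 2.01 higher on the log2 scale (adjusted p = 3.71e-05 and 0.00752).

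The libraries with and without TMZ also differed in the cell types their markers stand for. All 9 mast cell and basophil markers rose, with summed values of 443 to 1240 normalized counts without TMZ (Fcer1a, Tpsb2 and Mcpt4 at 0 in all 3) and 87830 to 224100 with it. All 5 megakaryocyte and platelet markers rose (33.5 to 65.2 without, 28900 to 56720 with), and all 6 tested B cell markers fell (8776 to 15110 without, 215 to 504 with). T and NK cell markers summed to 256.5 to 598 without and 6386 to 9086 with TMZ, where 2 of 8 tested rose and 5 fell. Those that rose were Gzmb, a granule protease (16.4 ± 7.40 to 7335 ± 1249), and Nkg7 (47.4 ± 9.09 to 639 ± 170), while Cd3e, which defines T cells, was at 0 in every TMZ library. Monocyte and macrophage markers summed to 97030 to 112500 without and 26220 to 73000 with TMZ (5 of 15 rose and 6 fell). Of 7 leukemia and progenitor genes tested, 1 rose and 5 fell. Kit stood at 577, 399.5 and 183 without and at 9777, 14000 and 17110 with TMZ. Hoxa10 stood at 1573, 1539 and 577 without and at 59.9, 34.2 and 24.5 with it. Elane stood at 22200, 20590 and 20470 without and at 3489, 1734 and 1538 with it. Hoxa9, a gene on which MLL-AF9 leukemia relies, fell by 2.07 on the log2 scale (adjusted p = 0.000933). The 36S libraries with TMZ stood alike in this, at 117300 to 292300 for the mast cell and basophil sum in the table of treated libraries. The part of these differences in the values of the 10 genes was not tested. With column totals made equal, the median of all genes moved from 0.06 to -0.09.

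With TMZ in both genotypes, none of the 10 genes was called between 36N and 36S, where 0% of 14246 genes were called by limma-trend. At an unadjusted p under 0.05 there were 191 genes of all and 1 of the 10 (Ier3), and the other fits called 0 or 1 genes. Ier3 stood at 1029.5, 1390.2 and 1389 in 36S and at 1527, 1661 and 2185 in 36N, and was the 1 of the 10 whose groups did not overlap (2.9% of all genes were higher in this way). The log2 difference was 0.49 (SE 0.21, unadjusted p = 0.0458, adjusted p = 1). Klf2 stood at 199, 58.2 and 106 in 36S and at 338, 86.3 and 141 in 36N, and Nr4a1 at 162, 63.0 and 40.5 in 36S and at 163, 51.9 and 59.9 in 36N. Both overlapped, with differences of 0.58 (SE 0.60) and 0.10 (SE 0.62). Several genes ran alike in treated libraries 1 to 3 of 36S and 4 to 6 of 36N, as described below. The labels do not pair these libraries, so the shared spread is part of the standard errors and p-values in this comparison. A missing call here does not show that the genotypes were alike. Ier2 stood at 1289.6, 1119 and 1561 in 36S and at 1915, 1181 and 1142 in 36N (0.07, SE 0.24), and Klf6 at 1999.9, 2164 and 2257 in 36S and 2518, 2185 and 3622 in 36N (0.34, SE 0.21).

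Untreated and treated 36S cells stood in tables of different scale, but both tables share 36N libraries with the table of 36N with and without TMZ, and a gene's factor between tables was nearly the same in each shared library (within 1.02 times for 99.91% of 12810 genes untreated and 99.92% of 13130 with TMZ). Both 36S groups were therefore put on the scale of that table by these factors, which 15834 of 16062 genes had. In 36S, Ier3, Ier2 and Egr3 rose with TMZ and Klf2 and Nr4a1 fell, so that 5 of the 10 genes were called, where 63.3% of 13732 genes tested were (32.1% higher and 31.2% lower). The median over the 10 was 0.31, against 0.00 for all genes tested, and the groups of those 5 genes were the ones that did not overlap (35.1% of all genes higher in this way and 34.2% lower). Without untreated library 2 the count of called members came down to 2, without untreated library 3 or treated library 2 to 3, and with column totals made equal to 3.

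Ier3 stood at 91.1, 61.98 and 33.0 bridged normalized counts in untreated 36S and at 673, 909 and 908 with TMZ (13.4-fold, log2 fold change 3.82, SE 0.36, adjusted p = 4.33e-05). Klf2 stood at 306.5, 369 and 387 without and at 155, 45.2 and 82.7 with TMZ (log2 fold change -2.06, SE 0.41, adjusted p = 0.00235). Both calls held in each of the 15 alternative fits. Ier2 stood at 697, 681 and 645 without and at 1001, 868.1 and 1211 with TMZ (log2 fold change 0.59, SE 0.17, adjusted p = 0.0157), a call lost without untreated library 2 (adjusted p = 0.0566) or 3 (0.0616) and with equal column totals (0.0534). Nr4a1 stood at 145, 172 and 184 without and at 127, 49.4 and 31.8 with TMZ (log2 fold change -1.49, SE 0.47, adjusted p = 0.0217), a call lost in 4 of the 6 fits that left out a library (adjusted p between 0.0521 and 0.0665: untreated libraries 2 and 3, treated libraries 2 and 3). Egr3 stood at 6.86, 12.7 and 16.6 without and at 34.5, 21.4 and 28.3 with TMZ (log2 fold change 1.21, SE 0.45, adjusted p = 0.0429), a call lost in 5 of these 6 fits (adjusted p between 0.0542 and 0.131, all but the fit without untreated library 3) and with equal column totals (0.074).

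The other 5 genes were not called in 36S. Egr1 stood at 208, 181 and 175.5 without and at 843, 687.5 and 47.1 with TMZ, with treated libraries 1 and 2 above and library 3 below every untreated one (log2 difference 0.68, SE 0.93, adjusted p = 0.542, and 2.01, adjusted p = 0.000113, without treated library 3). Klf6 stood between 1111 and 1302 without and between 1255 and 1417 with TMZ, and Dusp1 at 428, 320.3 and 156 without and at 259, 197 and 88.9 with it (log2 difference -0.74, SE 0.47, adjusted p = 0.199). Egr2 and Nr4a2 overlapped between the groups, with differences of -1.06 (SE 0.71) and 0.47 (SE 0.71). As in 36N, markers of other cells moved with TMZ in 36S: all 5 tested mast cell and basophil markers and all 5 megakaryocyte and platelet markers rose, and all 6 tested B cell markers fell. The part of these in the values of the 10 genes was not tested. With column totals made equal, the median of all genes moved from 0.00 to -0.15.

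The spread among treated libraries was wide for several of the genes in both genotypes. Egr1 stood at 1116, 909.99 and 62.3 in 36S and at 1869.7, 862 and 102 in 36N, so that libraries 3 and 6 lay far below the others of their group. Dusp1 stood at 379.7, 289 and 130.4 in 36S and at 617, 295 and 163 in 36N, and was lowest in those same libraries. Nr4a2 stood at 161, 23.7 and 37.2 in 36S and at 28.6, 36.4 and 364 in 36N, with 1 high library in each group. Egr2 stood at 22.0, 6.08 and 45.4 in 36S and at 61.2, 6.81 and 9.02 in 36N, and Egr3 at 56.3, 35.0 and 46.1 and at 137, 42.6 and 63.6. Library 1 of 36S and library 4 of 36N were the highest of their groups for Klf2, Nr4a1, Egr1, Egr3 and Dusp1. The summed mast cell and basophil markers were also lowest in library 1 of 36S (117300, against 282600 and 292300) and in library 4 of 36N (129300, against 255000 and 331400). Fos ran in the same order as Egr1, at 634, 387 and 104 in 36S and 1181, 322 and 207 in 36N.

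**Figure D4:**
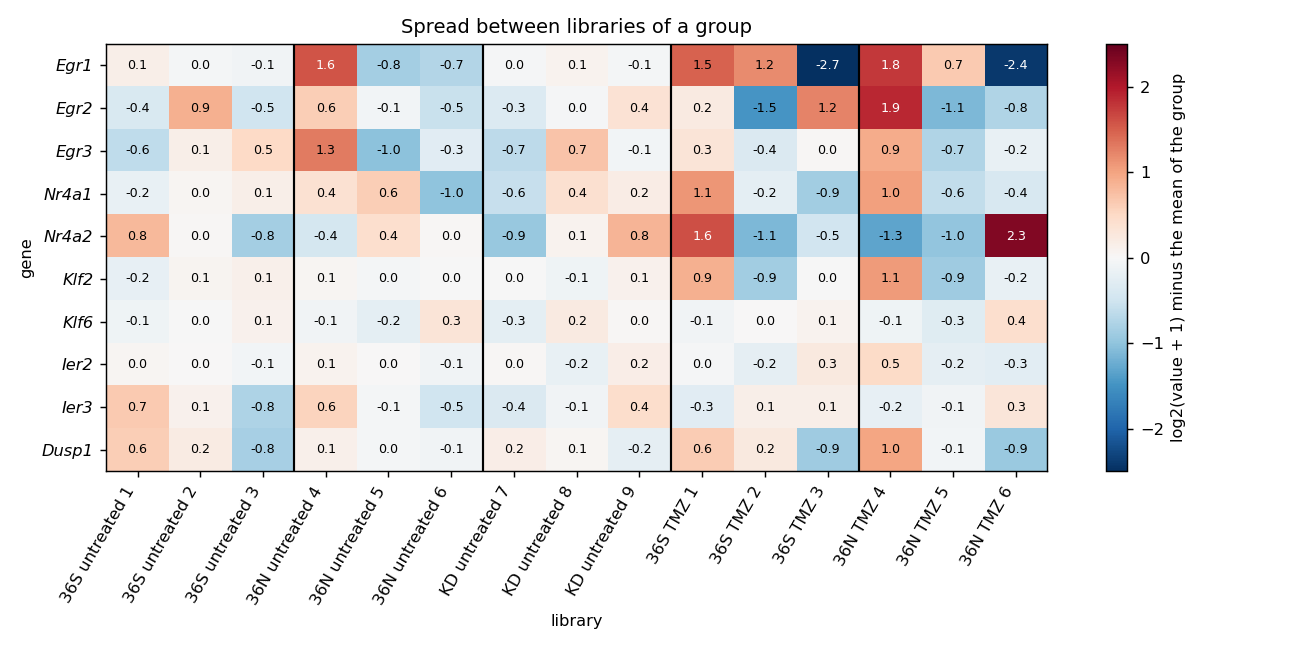
Deviation of each library from the mean of its group, on the log2(normalized count + 1) scale, for the 10 genes in the 15 libraries (TMZ libraries from the table of treated 36S and 36N). Numbers in the cells are the deviations, and lines separate the 5 groups. Egr1 lies 2.66 below its group mean in 36S TMZ library 3 and 2.42 below in 36N TMZ library 6, while Klf6 and Ier2 stay within 0.48 of their group mean in all 15 libraries.

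Last, the difference between 36N and 36S with TMZ was set against the difference without it, each taken within its own table, in a fit over 12 libraries. None of the 10 genes was called, where 0.281% of 14584 genes were (0.199% higher and 0.0823% lower), and none of them had an unadjusted p under 0.05. For Klf2 the change in the genotype difference was -0.38 (SE 0.65, adjusted p = 0.955), for Nr4a1 it was -1.05 (SE 0.79, adjusted p = 0.907), for Egr1 1.73 (SE 1.61, adjusted p = 0.922) and for Ier3 0.76 (SE 0.49, adjusted p = 0.882). The standard errors ran from 0.27 for Klf6 (-0.18, adjusted p = 0.949) and Ier2 (0.08, adjusted p = 0.978) to 1.61 for Egr1. Libraries 1 to 3 of 36S and 4 to 6 of 36N with TMZ ran alike in several genes, as described above, and the labels do not pair them, so that spread is part of these errors. A missing call does not show that the genotypes responded alike.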

How the data were processed

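RNA sequencing was analysed in 15 libraries in 5 groups of 3, grouped by the labels, with the columns headed WT taken as 36S. Per the labels' protocols, RNA was poly(A) selected. Each deposited table holds a normalized signal for every gene, and the normalization was done by the authors. Salmon, DESeq2 and build mm10 are named per the submitters' processing notes, and their roles, versions and further steps are not stated there. Whole reads could not be recovered, so depth is unknown, no counting intervals are given and no count model was used. Each of the 4 tables was analysed alone, except that 36S values were identical in both untreated tables (largest difference 0), which allowed KD against 36N. For TMZ in 36S, a comparison added after seeing the data, each gene of untreated and treated 36S was multiplied by the ratio of the summed 36N values between the tables; genes at 0 in all 36N libraries of a table (228) were left out.

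Genes with at least 10 in at least 3 libraries were tested on log2(value + 1) with limma-trend (limma 3.58.1, R 4.3.3), using only the libraries of a comparison, and p-values were adjusted over all genes tested by Benjamini-Hochberg, with a threshold of 0.05. The script was tested on simulated data. The interaction used 12 libraries with an intercept for each table. The 10 genes, the other lists and the tests were chosen with earlier results of these data known. The members were named whatever their values, other list genes by the up to 4 largest changes past the threshold, and like genes by the 3 smallest root mean square differences of centred log2 values over the 9 untreated libraries. Jun, Fosb and Hspa1b in 36S and Fos with TMZ were singled out after their values were seen. Coordinates are from GENCODE M21 on mm10, and promoter windows from RefSeq on GRCm38.p6. The alternatives tried were a filter of 50 or none, pseudocounts of 0.5 and 5, equal column totals, quantile normalization, fits without the trend and with a robust trend, each library left out, and a block by library number.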

Additional observations from a re-analysis of the deposited data

How the results depend on the processing

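The calls of Klf2 in 36N over 36S and in KD over 36S, of Dusp1 in KD over 36N, of Ier3, Nr4a1 and Klf2 with TMZ in 36N and of Ier3 and Klf2 with TMZ in 36S held in every alternative run. Leaving out a library moved the number of genes called to between 188 and 508 in 36N over 36S (599 with all), 591 and 2051 in KD over 36S (1503), 116 and 1986 in KD over 36N (425), 0 and 1 in 36N over 36S with TMZ (0), 6772 and 8348 with TMZ in 36S (8698) and 11 and 39 in the interaction (41), and members called to between 1 and 2, 1 and 4, and 1 and 4 in the first 3 of these and between 2 and 4 with TMZ in 36S (5), where equal column totals left 3. The gene count moved over 1.5 times in 36N over 36S without any library but 36S library 3 (lowest without 36S library 2), in KD over 36S without 36S library 2 (the lowest) or 3 or KD library 7 or 9, in KD over 36N without any library but 36N library 6 (lowest without KD library 9, highest without KD library 8), in 36N over 36S with TMZ without 36S library 3, and in the interaction without any of 9 of the 12 libraries (lowest without untreated 36S library 2). With no trend, 305 genes were called in 36N over 36S and 203 genes and 2 members in KD over 36N. A filter of 50 left 2 members in KD over 36S, since Egr2 and Egr3 did not reach 50 in 3 libraries and were not tested. The cause of the other moves in these counts was not tested beyond the smaller number of samples or genes. Directions turned when a library was left out only for members that had not been called: in 36N over 36S for Nr4a2 (-0.52 to 0.30), Ier2 (-0.0629 to 0.0291), Ier3 (-0.65 to 0.0615) and Dusp1 (-0.60 to 0.12), in KD over 36S for Nr4a2 (-0.11 to 0.79), in KD over 36N for Nr4a2 (-0.00562 to 0.89), Klf6 (-0.18 to 0.11) and Ier3 (-0.51 to 0.0178), with TMZ in 36N for Egr2 (-1.02 to 0.46), Nr4a2 (-0.14 to 1.69), Klf6 (-0.24 to 0.15) and Dusp1 (-0.68 to 0.26), in 36N over 36S with TMZ for Egr1 (-0.88 to 1.66), Egr2 (-0.95 to 0.35), Nr4a1 (-0.41 to 0.65), Nr4a2 (-0.69 to 1.27), Ier2 (-0.17 to 0.20) and Dusp1 (-0.15 to 0.81), with TMZ in 36S for Egr1 (-0.0541 to 2.01) and Nr4a2 (-0.33 to 1.03), and in the interaction for Egr2 (-0.0434 to 1.52), Egr3 (-0.58 to 0.58), Nr4a2 (-0.59 to 1.37), Klf2 (-0.92 to 0.0627) and Ier2 (-0.16 to 0.22). A pseudocount of 5 turned the interaction of Egr3 from -0.0752 to 0.0466. The titles give a treated and an untreated library the same number and stem without saying that they share an animal, and the deviations of same-numbered libraries correlated at 0.019, 0.0371 and 0.0858 in 36N and at -0.0351, 0.00939 and -0.00889 in 36S, too weakly for the numbers to be used as pairs. With a replicate block by library number, 9985 genes were called with TMZ in 36N, 6 members were called in place of 4 (Egr1, adjusted p = 0.0112, and Egr3, adjusted p = 0.03, were added), 8323 genes and 5 members were called with TMZ in 36S (Dusp1, adjusted p = 0.0307, in place of Egr3, 0.0737), and the interaction called 17 genes; the cause was not tested. Not all same-numbered libraries correlated best with each other. Depth before normalization is unknown, so no limit by counts can be given.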
